A study of Mus musculus with 18 samples.

Results

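DNGR-1, the receptor encoded by Clec9a, is the gene whose history of expression marks the traced cells of this study, and the question asked here was which transcripts of dendritic cell identity the neural cultures carried. The genes were chosen by name: Clec9a itself and 9 others that define dendritic cells or their antigen presentation, namely Ptprc, Zbtb46, Irf8, Batf3, Xcr1, Flt3, Itgax, Cd74 and Ciita. Of these 10 genes, 8 had a row among the 27997 genes of the normalised table, and Clec9a and Itgax were not analysed here. Each gene was judged against its own level in a hippocampal line that was never traced through DNGR-1.

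Adherent neural stem cell (NSC) cultures and the astrocytes made from them were sequenced from 3 mouse lines, with 3 replicates for each of the 6 groups and 18 libraries in all. The tdTomato line and the EYFP line were grown from DNGR-1-traced spinal cord cells, sorted by their reporter from neurospheres of mice in which Cre from the Clec9a locus had switched on a Rosa26 reporter. Their genotypes were labelled DNGR-1 +/- Tom+/- and DNGR-1 +/- EYFP+/-. The hippocampal line, labelled DNGR-1+/+, came from mice that carried Glast-Cre, a floxed Huwe1 allele and the Rosa EYFP reporter. All NSCs were grown for 4 days on laminin with bFGF and EGF, each at 20 ng/ml, and all astrocytes were made with BMP4 at 20 ng/ml over 6 days. The replicates came from passages 10, 11 and 12 of 1 culture line each, so no p-value measures the spread between mice, and no age was given in the labels. In fits of single lines the p-values measure the spread between cultures of a line. The main fits that joined both traced lines against the hippocampal line, and the interaction, had no term for the line. Their spread therefore also holds the difference between the tdTomato and EYFP lines. Traced and hippocampal lines differed in region, genotype and reporter history together, and the contributions of these cannot be told apart.

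Conventional dendritic cells are antigen-presenting leukocytes that arise in the bone marrow under the cytokine FLT3L, which acts on the receptor FLT3. The transcription factors IRF8 and BATF3 are needed for the cDC1 subtype, which carries DNGR-1 and the chemokine receptor XCR1, while ZBTB46 marks the conventional lineage as a whole. CIITA is the master regulator of MHC class II genes, and the invariant chain CD74 escorts class II molecules to the compartments where peptides are loaded. CIITA is made constitutively in dendritic cells, but interferon-gamma can induce it in many other cell types, astrocytes among them.

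The promoters of 3 of these genes are shown because the tracing rests on Clec9a and because Batf3 and Xcr1 are cDC1 genes whose levels changed between the groups below. They are the RefSeq sequences of GRCm38.p6, from 250 bases before to 50 bases after the start of transcription and on the strand of the gene. They were taken from chr6:129408612-129408911 on the plus strand for Clec9a, chr1:191098164-191098463 on the plus strand for Batf3 and chr9:123861980-123862279 on the minus strand for Xcr1. Capitals mark the letters of 5 motifs that were searched on both strands.
Clec9a: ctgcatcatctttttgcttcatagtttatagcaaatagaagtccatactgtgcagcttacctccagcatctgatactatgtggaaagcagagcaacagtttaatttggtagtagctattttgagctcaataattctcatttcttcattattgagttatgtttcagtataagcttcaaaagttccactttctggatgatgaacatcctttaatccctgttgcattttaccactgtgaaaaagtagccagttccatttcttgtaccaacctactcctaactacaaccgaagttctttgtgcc
Batf3: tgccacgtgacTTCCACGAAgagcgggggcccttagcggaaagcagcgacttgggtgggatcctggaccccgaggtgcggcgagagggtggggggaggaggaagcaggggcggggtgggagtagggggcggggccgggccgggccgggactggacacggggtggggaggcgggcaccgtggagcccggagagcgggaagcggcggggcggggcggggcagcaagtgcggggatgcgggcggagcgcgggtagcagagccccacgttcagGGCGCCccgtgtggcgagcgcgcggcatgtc
Xcr1: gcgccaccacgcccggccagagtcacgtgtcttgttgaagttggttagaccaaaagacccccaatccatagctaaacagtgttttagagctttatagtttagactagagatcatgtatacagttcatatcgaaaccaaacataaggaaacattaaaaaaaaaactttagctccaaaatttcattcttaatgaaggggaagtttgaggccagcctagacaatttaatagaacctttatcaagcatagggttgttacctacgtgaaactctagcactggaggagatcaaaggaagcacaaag

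The motifs searched were the interferon-gamma activated site TTCNNNGAA, the interferon-stimulated element (GAAA, any 2 bases, GAAA), the AP-1 site TGANTCA, the BMP-responsive element GGCGCC and the PU.1 site GAGGAAGT. They occur in 8.30%, 3.44%, 7.81%, 11.9% and 3.20% of 32851 mouse promoters of the same length, respectively. The Batf3 promoter held an interferon-gamma activated site that began 239 bases before the start and a BMP-responsive element that began 19 bases after it. This RefSeq start lies inside the gene as positioned below, which begins at chr1:191097847. None of the 5 motifs was found in the Clec9a or Xcr1 windows. Of the windows not shown, Irf8 held interferon-gamma activated sites that began 171 and 153 bases before the start, and Zbtb46 and Itgax each held an AP-1 site. A promoter entry was matched for 8 of the 10 genes.

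The table gives log2 values that were normalised to library size, with the form of a regularized log, which shrinks the values of weak genes towards a mean. The transform is not named in the sources used here. Weak genes often sat at the same lowest value in several libraries, and that value differed between genes. Such a floor was visible in the table: in 597 rows, 17 libraries lay within 0.05 of the lowest value and the remaining library stood above it by at least 0.13. A library within 0.05 of the lowest value of its gene is called below a library at the lowest level, which is used for genes that had at least 4 such libraries. Sequencing depth cannot be read from these values, and a low transcript that was not detectable at this depth cannot be called absent.

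The cultures carried genes of their labelled cell types, but the NSC genes as a list were not higher in NSCs than in astrocytes. The NSC genes Nes and Sox2 had group means of 13.86 to 14.27 and 11.29 to 12.05 in NSCs on the log2 scale, and the astrocyte gene Gfap went from 9.06 to 9.30 in NSCs to 15.14 to 16.40 in astrocytes. Of 11 astrocyte genes tested, 9 rose from NSC to astrocyte and 0 fell, where 42.1% of all genes were called higher. Of 12 NSC genes tested, 6 were called higher and 4 lower in astrocytes than in NSCs. Their median log2 difference was 0.15. Huwe1, the floxed gene of the hippocampal line, was at 12.97 to 13.38 in all 18 libraries. Leukocyte genes differed in level. Aif1 and Itgam had group means of -2.14 to -2.10, and Spi1, which encodes the myeloid factor PU.1, had means of -1.22 to -0.89. The integrin genes Itgb2 and Itgal had means of 2.24 to 2.45 and 2.76 to 2.85 in NSCs and of 4.19 to 4.70 and 4.16 to 4.50 in astrocytes, and Cytip, Tmem119, Cd14 and Itga4 reached means of 5.38, 6.15, 8.22 and 8.76. Their part in the results was not tested. Tyrobp, Cx3cr1 and C1qa were among the leukocyte and microglia genes not analysed here.

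The 8 dendritic cell genes did not share a level. Ordered by mean level over all 18 libraries per kilobase of exon on the linear scale, they ran from Zbtb46 at 40.1 through Batf3 at 7.77, Irf8 at 2.22, Xcr1 at 2.15, Cd74 at 1.11, Ciita at 0.82 and Flt3 at 0.126 to Ptprc at 0.0195. Below Batf3 the order changed with the group. In NSC libraries Irf8 was at 1.74 to 2.54 and Xcr1 at 0.598 to 0.90 per kilobase, whereas in hippocampal astrocytes Irf8 was at 1.97 to 3.47 and Xcr1 at 4.58 to 5.84, and in tdTomato astrocytes the libraries of both genes overlapped. Cd74 had a mean of 0.782 in hippocampal NSCs, above the 0.603 of Xcr1, and in hippocampal astrocytes its mean of 1.44 was below the 2.24 of Ciita. In the hippocampal NSCs Xcr1 was at its lowest level in 3 of 3 libraries and Cd74 in 2 of 3. Because the floor differs between genes, the order of genes at the floor, as of Flt3 and Ptprc in most libraries, does not rank their expression. As a reference of largely silent genes in the same table, 160 of 1407 olfactory receptor genes had a row, and the median of their mean log2 values was -1.65. These are only the 11.4% that had a row, and their highest mean was 8.96, so they are not a sample of silent genes alone. The mean of Ptprc was reached or exceeded by 74 of those 160 genes, that of Flt3 by 40 and that of Cd74 by 26. For Ciita, Xcr1, Batf3, Irf8 and Zbtb46 the numbers were 9, 6, 5, 2 and 1.

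**Figure D1:**
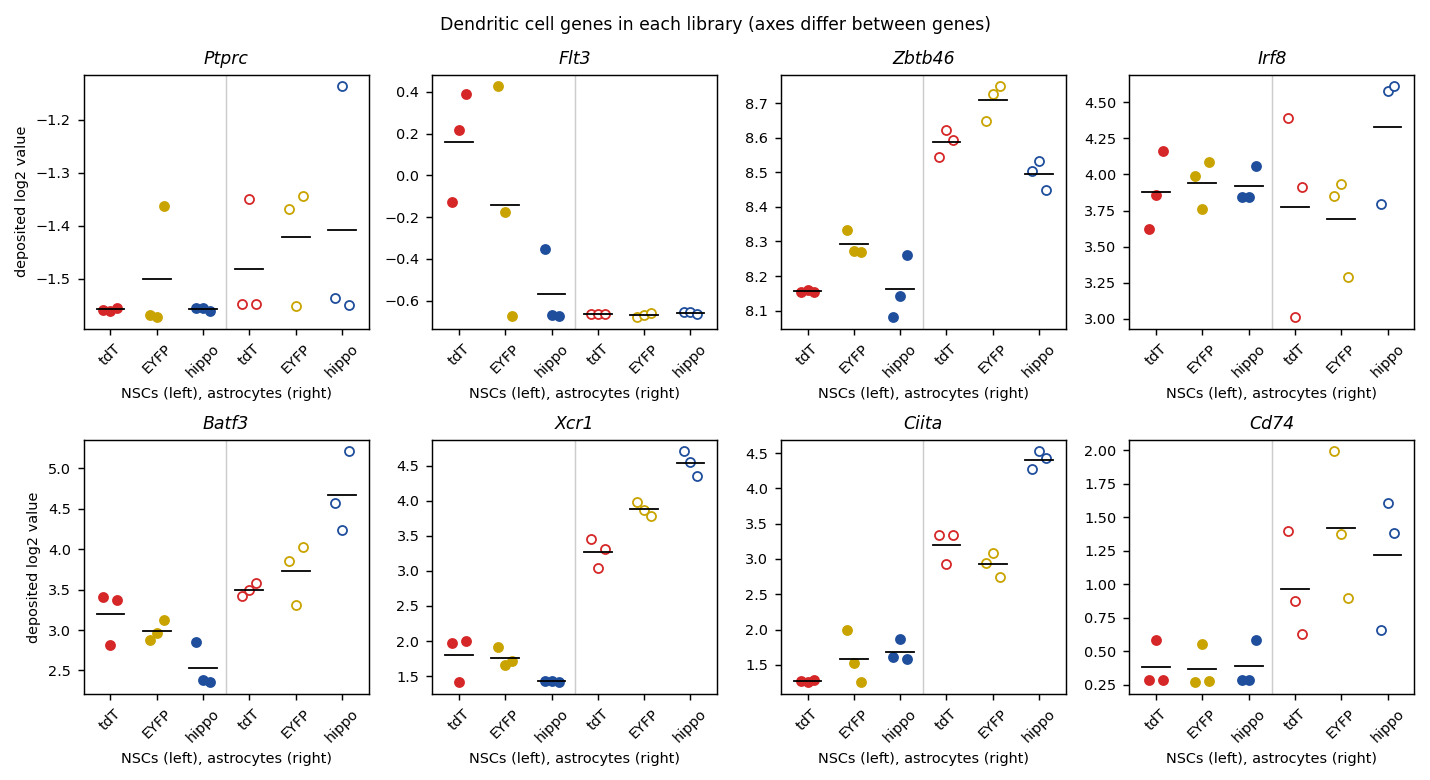
Deposited log2 values (vertical axes, which differ between genes) of the 8 dendritic cell genes in each of 18 libraries, by group on the horizontal axis (tdT, tdTomato line; EYFP, EYFP line; hippo, hippocampal line). Filled points are NSCs, open points astrocytes and bars the mean of 3 libraries. Ptprc and Flt3 lie on a common floor in 13 and 12 of 18 libraries, whereas Batf3, Xcr1 and Ciita stand highest in the hippocampal astrocytes.

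The leukocyte gene itself was close to the floor. Ptprc (ENSMUSG00000026395, chr1:138062861-138175708 on the minus strand of GRCm38) encodes CD45, the phosphatase carried by nearly all blood-derived leukocytes. Its log2 level was at the lowest level, between -1.57 and -1.54, in 13 of 18 libraries. The exceptions were -1.36 in replicate 3 of the EYFP NSCs, -1.35 in replicate 2 of the tdTomato astrocytes, -1.37 and -1.34 in replicates 1 and 3 of the EYFP astrocytes, and -1.14 in replicate 2 of the hippocampal astrocytes. The highest library was thus an untraced one, and a library above the floor occurred in 1 of 6 traced and 0 of 3 hippocampal NSC cultures and in 3 of 6 traced and 1 of 3 hippocampal astrocyte cultures. Ptprc did not pass the filter on low values, which required 3 of the libraries compared to reach 3.32 on the log2 scale. In the fit without the filter, the traced NSCs differed from the hippocampal NSCs by 0.03 ± 0.05 (log2 difference ± SE, limma, adjusted p = 0.782).

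Flt3 (chr5:147330741-147400489, minus strand) encodes the receptor that drives dendritic cell development, and it was recorded above its floor only among NSCs. Its log2 level was -0.13, 0.22 and 0.39 in the tdTomato NSCs, 0.43, -0.18 and -0.67 in the EYFP NSCs and -0.35, -0.67 and -0.67 in the hippocampal NSCs. All 9 astrocyte libraries were at the lowest level, between -0.68 and -0.66. Above it were 5 of 6 traced and 1 of 3 hippocampal NSC cultures, and the EYFP and hippocampal NSCs overlapped. Without the filter, the log2 difference from the hippocampal NSCs was 0.73 ± 0.17 for the tdTomato line (limma, adjusted p = 0.0393), where 18.5% of all genes were called, and 0.42 ± 0.29 for the EYFP line (adjusted p = 0.499). For both traced lines together it was 0.58 ± 0.24 (adjusted p = 0.204). These levels were below those of the 90th percentile of olfactory receptor genes, whose mean log2 value was 1.67.

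Among the transcription factors, Zbtb46 (chr2:181387762-181459426, minus strand) was the only gene of the 8 with a level above 100 on the linear scale, and it was high in the hippocampal line too. The zinc finger protein it encodes restrains the response of dendritic cells to stimuli. In NSCs its log2 level was 8.15, 8.16 and 8.15 in the tdTomato line, 8.33, 8.27 and 8.27 in the EYFP line and 8.08, 8.14 and 8.26 in the hippocampal line. In astrocytes it was 8.54, 8.62 and 8.59, then 8.65, 8.73 and 8.75, and then 8.50, 8.53 and 8.45 for the same lines. All astrocyte libraries lay above all NSC libraries, as they did for 22.9% of all genes that passed the filter.

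Irf8 (chr8:120736358-120756694, plus strand) encodes the factor that commits progenitors to cDC1. Its log2 level was 3.62, 3.86 and 4.16 in tdTomato NSCs, 3.99, 3.76 and 4.09 in EYFP NSCs and 3.84, 3.85 and 4.06 in hippocampal NSCs. In astrocytes it was 4.39, 3.01 and 3.91, then 3.85, 3.94 and 3.29, and then 3.79, 4.58 and 4.61. The groups overlapped in both fates, and the widest spread was within the tdTomato astrocytes.

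Batf3 (chr1:191097847-191108945, plus strand) encodes the AP-1 family partner of IRF8 in cDC1. Its log2 level was 3.41, 2.82 and 3.37 in tdTomato NSCs, 2.88, 2.96 and 3.13 in EYFP NSCs and 2.85, 2.39 and 2.35 in hippocampal NSCs. In astrocytes it was 3.42, 3.49 and 3.58 in the tdTomato line, 3.85, 3.31 and 4.02 in the EYFP line and 4.57, 4.24 and 5.21 in the hippocampal line. The hippocampal line was therefore lowest on average as NSCs and highest as astrocytes.

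The chemokine receptor gene Xcr1 (chr9:123852315-123862029, minus strand) had log2 levels of 1.98, 1.41 and 2.00 in tdTomato NSCs and of 1.92, 1.66 and 1.71 in EYFP NSCs. All 3 hippocampal NSC libraries were at its lowest level, between 1.41 and 1.43, together with replicate 2 of the tdTomato NSCs. In astrocytes the levels were 3.46, 3.04 and 3.31 in the tdTomato line, 3.98, 3.86 and 3.78 in the EYFP line and 4.70, 4.55 and 4.35 in the hippocampal line. The 3 astrocyte groups did not overlap, and the untraced line was the highest.

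Ciita (chr16:10480059-10528418, plus strand) showed the same order of fates. Its log2 level was 1.27, 1.26 and 1.28 in tdTomato NSCs, which were all at the lowest level, 1.99, 1.52 and 1.25 in EYFP NSCs and 1.61, 1.87 and 1.58 in hippocampal NSCs. In astrocytes it was 3.34, 2.92 and 3.34, then 2.94, 3.08 and 2.75, and then 4.27, 4.53 and 4.43. The hippocampal astrocytes stood above all traced astrocytes, and the tdTomato and EYFP astrocytes overlapped. Exons of Ciita overlap Dexi on the opposite strand, and whether the counting used strand was not given in the sources used here. Dexi had group means of 8.57 to 8.68 in NSCs and of 8.90 to 9.03 in astrocytes, with the hippocampal astrocytes at 8.98 between the other two astrocyte groups, and its part in the Ciita values was not tested.

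Cd74 remained low in every culture. Its log2 level was 0.28, 0.59 and 0.29 in tdTomato NSCs, 0.27, 0.55 and 0.28 in EYFP NSCs and 0.29, 0.29 and 0.59 in hippocampal NSCs. In astrocytes it was 1.40, 0.87 and 0.63, then 1.99, 1.38 and 0.89, and then 0.66, 1.61 and 1.38. In each NSC group 1 library was above the lowest level, as were all 9 astrocyte libraries, and the 3 astrocyte groups overlapped.

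Clec9a (ENSMUSG00000046080) lies at chr6:129408862-129424763 on the plus strand in a cluster of C-type lectin genes, and its first exon overlaps an exon of Clec1b on the same strand. Clec1b was at its lowest level in 15 of 18 libraries, including all 9 NSC libraries, and its highest log2 value was -1.54. Clec1a, which is on the minus strand and ends 9 bases beyond Clec9a, was at its lowest level in 15 libraries, and 4922502D21Rik stayed between -0.88 and -0.39. Clec12b was the exception among the neighbours, with group means of 3.01 to 3.78. The remaining 3 of the 6 nearest protein-coding genes, Clec12a, Olr1 and Tmem52b, were not analysed here.

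In NSCs, no dendritic cell gene that passed the filter was called between the traced lines and the hippocampal line. Over both traced lines, 6 libraries against 3, the log2 difference was 0.06 ± 0.07 for Zbtb46 (adjusted p = 0.56) and -0.01 ± 0.16 for Irf8 (adjusted p = 0.986), so 0 of the 2 genes tested were called, whereas 19.4% of all genes tested were called by limma. Neither had an unadjusted p under 0.05. Without the filter, where 9.60% of all genes were called, again none of the 8 genes was. Differences of 0.56 ± 0.19 for Batf3 (adjusted p = 0.123), 0.36 ± 0.15 for Xcr1 (adjusted p = 0.218) and 0.58 ± 0.24 for Flt3 (adjusted p = 0.204) had unadjusted p-values under 0.05, and all hippocampal NSC libraries of Xcr1 and 2 of 3 of Flt3 were at the lowest level. The values for Ciita and Cd74 were -0.26 ± 0.19 (adjusted p = 0.505) and -0.01 ± 0.11 (adjusted p = 0.962). Taken separately, neither traced line gave a call among the genes that passed the filter, where 42.3% and 27.6% of all genes were called in the tdTomato and EYFP lines.

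In astrocytes, Ciita, Batf3 and Xcr1 were lower in the traced lines. Of 5 genes tested, 3 were called lower and 0 higher, while 52.0% of all genes tested were called and 27.9% were called lower, so the share is not a result about these genes as a set. The log2 difference, traced minus hippocampal, was -1.35 ± 0.19 for Ciita (limma, adjusted p = 0.000169), -1.06 ± 0.24 for Batf3 (adjusted p = 0.004) and -0.96 ± 0.23 for Xcr1 (adjusted p = 0.00495). Ciita passed the filter only through the hippocampal libraries, and without the filter, where 29.3% of all genes were called, the adjusted p-values were 0.000472, 0.0103 and 0.0118 for Ciita, Batf3 and Xcr1. For each of these genes all 6 traced libraries lay below all 3 hippocampal libraries, and 48.3% of all genes tested had groups that did not overlap. Zbtb46 went the other way, with 0.15 ± 0.06 (adjusted p = 0.0518), and was called higher in the model with all lines, without a variance trend, with quantile normalization, with median centring and with a filter of 100 (adjusted p = 0.0201 to 0.0442). The difference was -0.60 ± 0.31 for Irf8 (adjusted p = 0.135). Ptprc, Flt3 and Cd74, in the fit without the filter, gave -0.04 ± 0.10, -0.01 ± 0.03 and -0.02 ± 0.33, with adjusted p-values of 0.781, 0.89 and 0.961. In bulk samples, fewer cells that express a gene and less RNA per cell cannot be told apart.

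Each traced line was also set on its own against the same 3 hippocampal libraries. In the tdTomato astrocytes, where 55.0% of all genes were called, the difference was -1.17 ± 0.26 for Batf3, -1.26 ± 0.21 for Xcr1 and -1.21 ± 0.22 for Ciita (limma, adjusted p = 0.0047, 0.000925 and 0.0013). In the EYFP astrocytes, where 47.2% were called, it was -0.94 ± 0.29 for Batf3, -0.66 ± 0.19 for Xcr1 and -1.49 ± 0.21 for Ciita (adjusted p = 0.0251, 0.019 and 0.000361). Xcr1 and Ciita in the tdTomato comparison and Batf3 and Ciita in the EYFP comparison passed the filter only through the 3 hippocampal libraries, so that a gene low in both groups could not have been counted. Without the filter, where 28.5% and 23.7% of all genes were called in the tdTomato and EYFP comparisons, the adjusted p-values were 0.00539 for Xcr1 and 0.00647 for Ciita in the tdTomato astrocytes and 0.00269 for Ciita in the EYFP astrocytes, and the EYFP call for Batf3 was lost (adjusted p = 0.0968). Zbtb46 was higher in the EYFP than in the hippocampal astrocytes by 0.21 ± 0.07 (adjusted p = 0.0265), which is a small change in a gene expressed in every culture. The EYFP calls for Batf3, Xcr1 and Zbtb46 depended on single libraries. The Batf3 call was lost without replicate 2 of the EYFP (-0.73, adjusted p = 0.0908) or replicate 3 of the hippocampal astrocytes (-0.68, adjusted p = 0.0939). The Xcr1 call was lost without replicate 3 of the EYFP (-0.62, adjusted p = 0.0615) or replicate 1 or 2 of the hippocampal astrocytes (-0.58 and -0.65, adjusted p = 0.0689 and 0.0544), and with quantile normalization (-0.53, adjusted p = 0.0508). The Zbtb46 call was lost without replicate 2 or 3 of either group, with differences of 0.19 to 0.23 and adjusted p-values of 0.0523 to 0.0941.

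**Figure D2:**
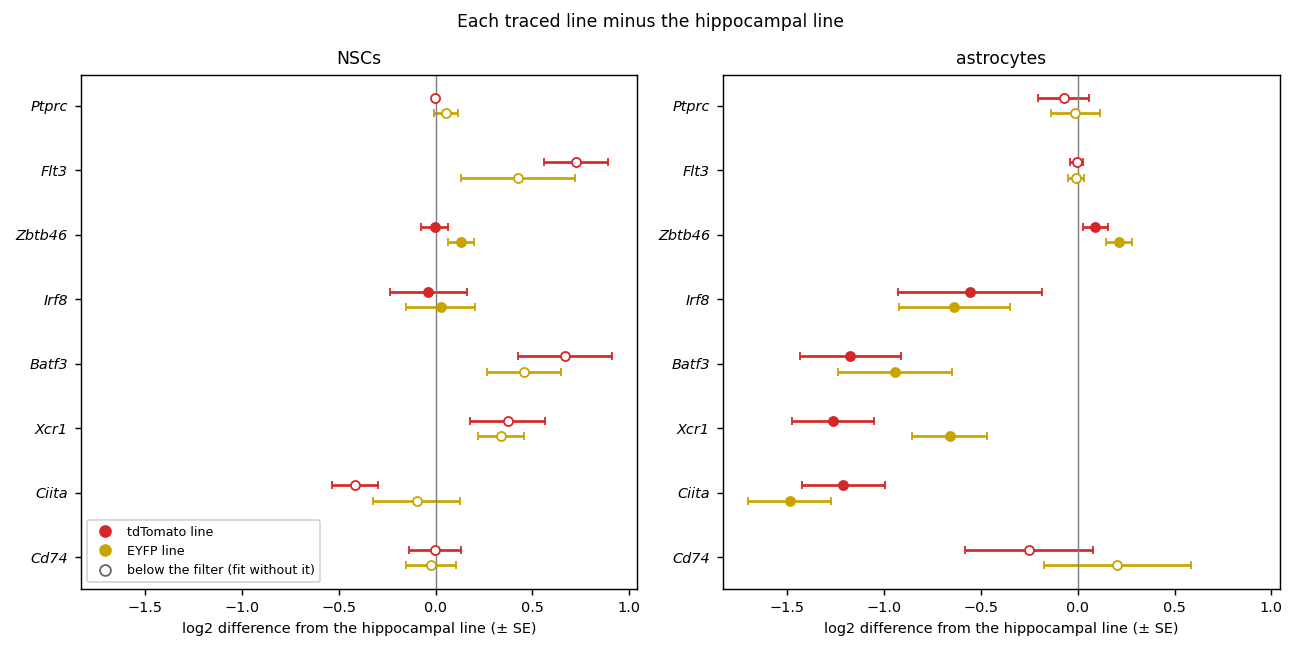
Log2 difference of each traced line from the hippocampal line (horizontal axis, ± SE of the limma fit, 3 libraries against 3) for the 8 genes, in NSCs on the left and astrocytes on the right. Filled points passed the filter and open points come from the fit without it; in astrocytes Batf3, Xcr1 and Ciita lie to the left of 0 in both lines, between -1.49 and -0.66.

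The tdTomato and EYFP lines were also compared with each other. None of the 2 genes tested in NSCs and none of the 4 tested in astrocytes was called, where 33.2% and 11.2% of all genes were. In NSCs the unadjusted p was under 0.05 for Zbtb46, with a log2 difference (tdTomato minus EYFP) of -0.14 ± 0.06 (limma, adjusted p = 0.102), and it was called without the filter (SE 0.03, adjusted p = 0.0466), where 10.6% of all genes were. In astrocytes it was under 0.05 for Xcr1, with -0.60 ± 0.21 (adjusted p = 0.118), and the lines did not overlap for either gene, nor did they for 48.5% of all genes tested in NSCs and 28.8% in astrocytes.

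Several of the genes rose from NSC to astrocyte. Over all lines, with the line in the model, Xcr1 rose by 2.23 ± 0.20 on the log2 scale (limma, adjusted p = 7.2e-09), Ciita by 2.00 ± 0.18 (adjusted p = 1.1e-08), Batf3 by 1.06 ± 0.24 (adjusted p = 0.000528) and Zbtb46 by 0.39 ± 0.03 (adjusted p = 5.7e-09). Of all genes tested, 81.9% were called and 42.1% were called higher. Xcr1, Ciita and Batf3 passed the filter only through the astrocytes, since no NSC library of Xcr1 or Ciita and 2 of Batf3 reached 3.32, so how many of the genes tested were called is not a result about them. Without the filter their adjusted p-values were 1.4e-08, 2.0e-08 and 0.000956. Irf8 gave 0.02 ± 0.18 (adjusted p = 0.935). In the fit without the filter, where 55.3% of all genes were called, Cd74 rose by 0.82 ± 0.16 (adjusted p = 0.000267) and Flt3 fell by 0.48 on the log2 scale (SE 0.13, adjusted p = 0.00387), and all astrocytes were above all NSCs for Cd74, as for 15.2% of all genes. Ptprc gave 0.10 ± 0.05 (adjusted p = 0.113). Lists of other cell types moved with fate too. With the filter, 12 of 12 ependymal genes tested were called higher in astrocytes, and of 8 microglia and macrophage genes 6 were called higher and 0 lower. Some of these genes passed the filter only through the astrocytes.

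For Xcr1, Ciita and Batf3 the rise was steepest in the hippocampal line. In the hippocampal line, where 77.3% of all genes were called, Xcr1 rose by 3.11 ± 0.22, Ciita by 2.73 ± 0.22 and Batf3 by 2.14 ± 0.28 (limma, adjusted p = 6.0e-07, 1.6e-06 and 6.7e-05). These genes passed the filter there only through the astrocytes, and all 3 NSC libraries of Xcr1 were at its lowest level. Without the filter, where 43.9% of all genes were called, the adjusted p-values were 4.7e-05, 8.7e-05 and 0.00233. In the EYFP line, where 74.9% were called, Xcr1 rose by 2.11 ± 0.21 (adjusted p = 1.0e-05), again tested only because its astrocyte libraries passed the filter. Without the filter (42.2% called) Xcr1 had an adjusted p of 0.000213, Ciita rose by 1.34 ± 0.25 (adjusted p = 0.00633) and Batf3 gave 0.74 ± 0.24 (adjusted p = 0.0544). In the tdTomato line, where 79.3% were called, Batf3 gave 0.30 ± 0.22 (adjusted p = 0.241), and without the filter (45.5% called) Xcr1 rose by 1.47 ± 0.23 (adjusted p = 0.00426) and Ciita by 1.93 ± 0.17 (adjusted p = 0.000419). Cd74, in the fit without the filter, had its largest value in the EYFP line, with 1.06 ± 0.30 (adjusted p = 0.0305) against 0.83 ± 0.27 in the hippocampal (adjusted p = 0.0566) and 0.58 ± 0.23 in the tdTomato line (adjusted p = 0.1).

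The difference between these changes was tested itself, as the interaction of origin and fate over all 18 libraries. It was -1.62 ± 0.31 for Batf3 (limma, adjusted p = 0.000588), -1.32 ± 0.28 for Xcr1 (adjusted p = 0.00152) and -1.09 ± 0.27 for Ciita (adjusted p = 0.00405). These 3 of 5 genes tested were called, where 35.7% of all genes were called and 19.9% were called in this direction. All 3 passed the filter through the astrocytes, and without the filter, where 19.6% of all genes were called, the adjusted p-values were 0.00144, 0.00383 and 0.00966. Zbtb46 and Irf8 gave 0.09 ± 0.09 (adjusted p = 0.452) and -0.59 ± 0.36 (adjusted p = 0.216). Zbtb46 rose in the tdTomato, EYFP and hippocampal lines, by 0.43 ± 0.06, 0.42 ± 0.07 and 0.33 ± 0.07.

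**Figure D3:**
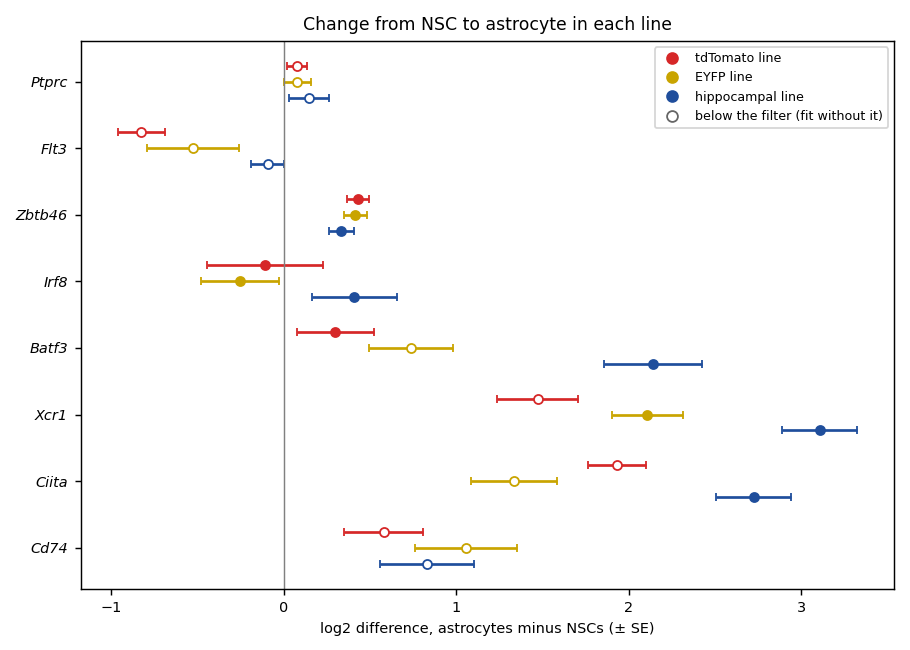
Log2 difference between astrocytes and NSCs (horizontal axis, ± SE of the limma fit, 3 libraries against 3) for the 8 genes in each line. Filled points passed the filter and open points come from the fit without it; Batf3, Xcr1 and Ciita rose furthest in the hippocampal line, by 2.14, 3.11 and 2.73, and Flt3 lies to the left of 0.

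Genes that act upstream of Ciita were followed in the same comparisons. Interferon-gamma signals through its receptor and the kinases JAK1 and JAK2, IRF1 and USF1 act on the Ciita gene, and SOCS1 restrains the pathway. Of 10 genes of this path that were tested, 6 were lower and 1 was higher in traced than in hippocampal astrocytes, with a median log2 difference of -0.20 against -0.01 for all genes tested, of which 52.0% were called and 27.9% were called lower. Nlrc5, the counterpart of Ciita for MHC class I genes, gave -2.51 ± 0.32 and Socs1 -1.51 ± 0.18 (limma, adjusted p = 9.2e-05 and 4.7e-05). In NSCs 2 of 9 were higher and 0 lower, Irf1 by 0.64 ± 0.10 (adjusted p = 0.002) and Usf1 by 0.17 ± 0.04 (adjusted p = 0.02), where 19.4% of all genes were called. The interaction was negative and called for 6 of 10 genes, among them Socs1 with -1.89 ± 0.30 (adjusted p = 8.5e-05), and it was positive and called for Ifngr1 and Jak1, while 35.7% of all genes were called and 19.9% were called negative. Ifng was not analysed here.

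Genes of MHC class II presentation moved in both directions. In astrocytes 5 of 16 tested were lower and 4 higher in the traced lines, with a median of 0.00, beside the 52.0% of all genes that were called. H2-DMa, a subunit of the peptide-loading catalyst, was lower by -0.63 ± 0.10 (limma, adjusted p = 0.00045), and the class II chains H2-Ab1 and H2-Eb1 gave -0.50 ± 0.30 and 0.01 ± 0.27 (adjusted p = 0.19 and 0.97). H2-Ab1 had group means of 4.37 to 5.12 over all 6 groups and H2-Aa of 0.25 to 1.39. Cathepsin L (Ctsl) and Cd44, a surface partner of CD74, were lower by -0.72 ± 0.07 and -1.12 ± 0.09 (adjusted p = 1.5e-05 and 4.1e-06), whereas Rfx5, a factor that binds class II promoters, was higher by 0.38 ± 0.04 (adjusted p = 4.5e-05).

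**Figure D4:**
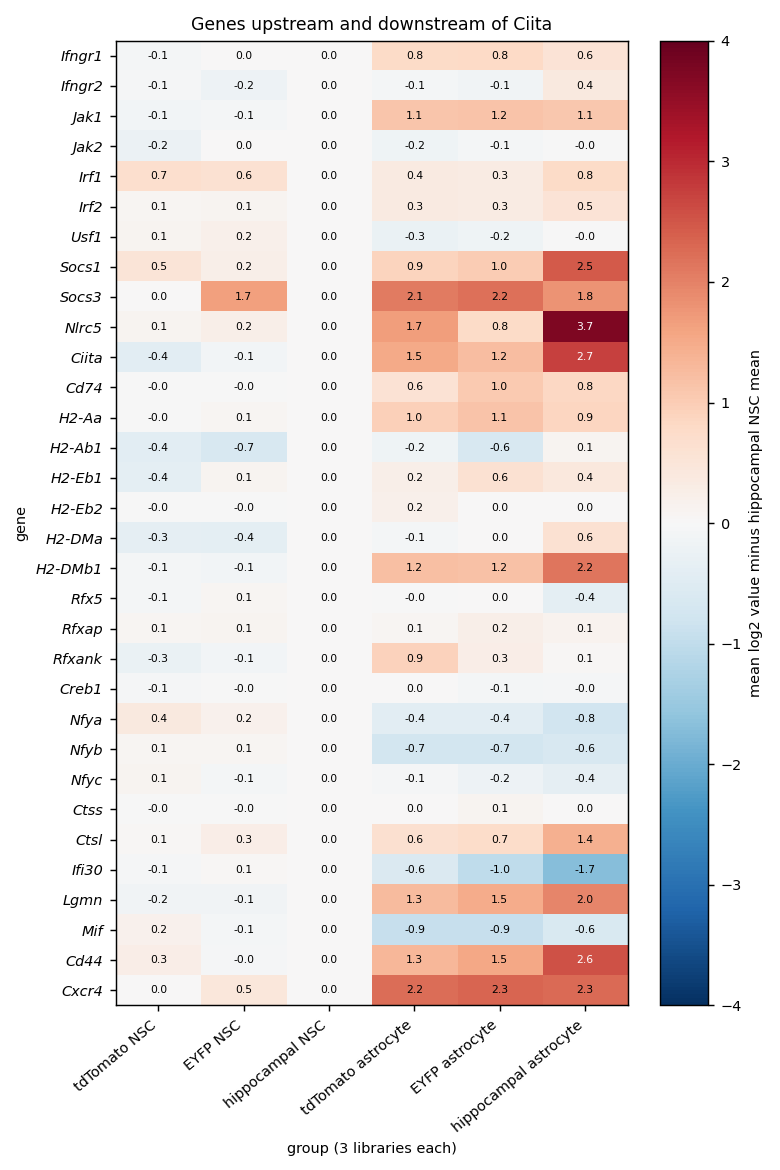
Mean log2 value of each gene (rows) in each group (columns, 3 libraries each) minus its mean in the hippocampal NSCs, with red above and blue below. The upper rows are the genes of the interferon-gamma path, followed by Ciita, Cd74 and the genes of class II presentation; Socs1, Nlrc5 and Ciita are highest in the hippocampal astrocytes.

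Other dendritic cell genes were followed in the same comparisons. Of 28 listed, 16 had a row and 5 passed the filter in astrocytes: Tlr3, Naaa, Snx22, Rab7b and Cst3, none of which is restricted to dendritic cells. Of these, 4 were lower in the traced than in the hippocampal astrocytes and 0 higher, where 27.9% of all genes were lower. The largest difference was that of Naaa, a lysosomal lipid amidase, at -1.20 ± 0.14 (limma, adjusted p = 3.9e-05). In NSCs 2 of 5 were lower and 0 higher, Rab7b by -1.68 ± 0.17 (adjusted p = 8.3e-05) and Cst3 by -0.37 ± 0.11 (adjusted p = 0.046), where 19.4% of all genes were called. Either traced line on its own had 3 of the 5 lower and 1 higher, where 42.3% and 27.6% of all genes were called in the tdTomato and EYFP NSCs. The cDC1 gene Cd8a had group means of -1.85 to -1.74, and Ccr7, Cd86 and Siglech were among the 12 genes not analysed here.

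Of 19 partner transcription factors with a row, 15 passed the filter. In astrocytes 6 were lower and 1 higher in the traced lines, with a median log2 difference of -0.06, where 52.0% of all genes were called and 27.9% were lower. Runx1 and Nfil3, both factors of dendritic cell development that are also used outside it, gave -1.19 ± 0.12 and -1.06 ± 0.14 (limma, adjusted p = 1.7e-05 and 0.00012). In NSCs, where 19.4% of all genes were called, 1 was higher and 0 lower. This count joins lines that went different ways: against the hippocampal NSCs, 1 was higher and 6 were lower in the tdTomato NSCs (42.3% of all genes called) and 5 were higher and 0 lower in the EYFP NSCs (27.6% called), and 10 of 15 were lower in the tdTomato than in the EYFP NSCs (33.2% called). Batf and Batf2, relatives of Batf3, had group means of -2.14 to -2.11 and of -1.23 to -0.81.

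In the path downstream of DNGR-1, which binds F-actin exposed on dead cells and signals through SYK, 13 of 15 genes with a row passed the filter. In astrocytes, where 27.9% of all genes were lower, 5 of 12 tested were lower and 1 higher in the traced lines, among them Gsn, an actin-severing protein that can mask the DNGR-1 ligand, with -2.47 ± 0.31, and the kinase gene Lyn with -1.35 ± 0.15 (limma, adjusted p = 7.4e-05 and 2.8e-05). Syk was lower in astrocytes than in NSCs of all lines, with -2.71 ± 0.12 (adjusted p = 7.7e-13, and 1.9e-12 without the filter, which it passed only through the NSCs), with group means of 5.42 to 5.73 in NSCs and of 2.84 to 2.89 in astrocytes.

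Of 8 genes tested from the Flt3 and growth factor receptor path, 5 were lower and 2 higher in traced than in hippocampal astrocytes, with a median log2 difference of -0.38, where 52.0% of all genes were called and 27.9% were lower. Kit, the receptor for stem cell factor, was one of the 2 that were higher. Its group means were 12.38 and 12.61 in tdTomato and EYFP astrocytes and 9.01 in hippocampal astrocytes, a log2 difference of 3.48 ± 0.09 (limma, adjusted p = 1.5e-09). The macrophage receptor gene Csf1r had group means of 0.69 to 1.52. Flt3l, which encodes the ligand, had means of 4.79 to 5.28 in NSCs and of 5.77 to 6.05 in astrocytes.

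Markers of other leukocytes were set beside these results. Of 15 pan-leukocyte genes with a row, 4 passed the filter, and in astrocytes 2 were higher in the traced lines, Itga4 by 0.72 ± 0.20 and Cytip by 2.03 ± 0.39 (limma, adjusted p = 0.011 and 0.0015), and 0 were lower, where 52.0% of all genes were called. In NSCs, where 19.4% were called, only these 2 were tested, and they were higher by 1.02 ± 0.12 and 2.37 ± 0.60 (adjusted p = 0.00022 and 0.021). Cytip was tested only because it is high in the traced libraries, since no hippocampal library reached 3.32. Without the filter its adjusted p was 0.00517 in astrocytes, and the call in NSCs was lost (adjusted p = 0.0521). The summed linear level of the list was 377 to 556 over the traced and 228 to 262 over the hippocampal NSC libraries, and 97.8 to 142 and 76.1 to 91.8 in astrocytes. In NSCs the sum was mostly Itga4, which made up 79.1% to 89.2% of it. Without Itga4 it was 75.8 to 89.5 in tdTomato, 46.7 to 52.9 in EYFP and 44.8 to 47.6 in hippocampal NSCs, so the EYFP and hippocampal libraries overlapped. Arhgdib, Fcer1g, Hcls1, Was and Cd84 were at their lowest level in at least 9 of the 18 libraries. Itga4 and Cytip are also used outside blood, and their part in the results was not tested.

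Of 15 microglia and macrophage genes with a row, 8 passed the filter in astrocytes, 3 were higher and 1 lower in the traced lines, where 52.0% of all genes were called. Cd14, a co-receptor for lipopolysaccharide, had group means of 3.30 and 2.94 in tdTomato and EYFP astrocytes and of 8.22 in hippocampal astrocytes, a log2 difference of -5.10 ± 0.22 (limma, adjusted p = 4.9e-08). Tmem119 was higher by 2.70 ± 0.52 and Cd163 by 1.23 ± 0.31 (adjusted p = 0.0014 and 0.0065). Tmem119 passed the filter only through the traced and Cd14 only through the hippocampal astrocytes, and without the filter their adjusted p-values were 0.00534 and 8.0e-07. In contrast, Aif1, Fcgr1, Adgre1 and Itgam had means between -2.14 and -1.63 in every group. The summed level was 5424 to 6022 in traced and 4452 to 4717 in hippocampal astrocytes, and 3880 to 4100 and 3719 to 3847 in NSCs, of which Sall1, a factor that neural progenitors also use, made up 58.1% to 72.8% in each library. Without Sall1 the sum was 1528 to 1689 in tdTomato, 1903 to 2073 in EYFP and 1861 to 1947 in hippocampal astrocytes, so the traced libraries were no longer all above the hippocampal ones.

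The lists of neural cells were counted against the same shares, 52.0% of all genes called and 27.9% lower in astrocytes and 19.4% called in NSCs. In astrocytes 5 of 11 astrocyte genes were lower and 1 higher in the traced lines, with Aldh1l1 at -3.30 ± 0.14 and Clu at -2.83 ± 0.25 (limma, adjusted p = 4.2e-08 and 5.7e-06). Of 12 ependymal genes tested 7 were lower and 1 higher, among them Vtn, which also marks pericytes, at -5.60 ± 0.46 (adjusted p = 4.0e-06, and 3.8e-05 without the filter, which it passed only through the hippocampal astrocytes). In NSCs 3 of 8 ependymal genes tested were higher and 0 lower in the traced lines, with a median log2 difference of 0.26. Aldh1l1 was also lower in the traced NSCs, by -3.44 ± 0.21 (adjusted p = 2.3e-06). Of 12 NSC genes, 6 were higher and 5 lower in the traced astrocytes, and 1 was higher and 1 lower in the traced NSCs. The tdTomato and EYFP NSCs differed here. Against the hippocampal NSCs, 2 were higher and 8 lower in the tdTomato NSCs, where 42.3% of all genes were called. In the EYFP NSCs 5 were higher and 2 lower, where 27.6% were called. Of the 12 genes, 8 were lower and 1 higher in the tdTomato than in the EYFP NSCs, where 33.2% were called.

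The genes whose profiles over the 18 libraries were most like those of the dendritic cell genes are given as a description, since the libraries share their fate and their line. By Pearson correlation among 15448 genes, they were Sbds (0.99), Gab1 (0.99) and Ak5 (0.98) for Ciita, and Vwa3b (0.99), Gadd45b (0.99) and Rufy1 (0.99) for Xcr1. They were Mpdz (0.94), Itga3 (0.93) and Tpcn2 (0.93) for Batf3 and Pcdhb14 (0.98), Lman2l (0.98) and Gm13375 (0.97) for Zbtb46. For Irf8, whose change with fate did not pass the test, the closest were Upk1a (0.77), Ercc1 (0.72) and Gm45193 (0.69).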

How the data were processed

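RNA was measured in 18 libraries of 6 groups. Per the submitters' processing notes, reads were trimmed with Trimmomatic 0.36, aligned with STAR 2.5.2 to GRCm38 (Ensembl release 89), quantified with RSEM 1.3.0 and normalised with DESeq2 1.18.1 in R 3.4.3. The authors deposited log2 values with the form of a regularized log, a transform not named in the sources used here. The depth of each library cannot be read from these values; the labels give at least 25 M reads per library, and the labels and the paper name different library kits.

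Differences were tested on the deposited values with limma 3.58.1 (R 4.3.3, trended variance), with Benjamini-Hochberg adjustment over all genes that came to 3.32 on the log2 scale (10 on the linear scale) in 3 or more of the libraries compared, and a threshold of 0.05. On simulated data, 91.0% to 100% of genes with a log2 change of 1 were recovered over the 13 comparisons. The changed genes there lay well above the filter in every library compared, so this rate does not hold for weak genes. Among the dendritic cell genes only Zbtb46 was at such a level. The genes and lists were chosen with earlier results of these data known, and the lowest-level rule (0.05) after seeing the values. Named list genes were up to 4 per list and comparison with the largest difference, an adjusted p under 0.05, a log2 difference of at least 1 and no overlap between groups. Further list genes were named after their values were seen, as markers or as smaller called changes. A further gene of the lists is not reported here. Positions come from GENCODE M21 and symbols matched for 27887 genes. Alternatives were no filter, a filter of 100, no trend, quantile normalization, median centring, a replicate block, a model with all lines and leaving out each library.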

Additional observations from a re-analysis of the deposited data

Results flagged for a closer look

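Single libraries stood far from the other traced libraries of their fate in 3 of 16 sets of 6 libraries, and chance flags about 1 in 20. Ptprc was at -1.36 in replicate 3 of the EYFP NSCs, the only traced NSC library above its lowest level. Ciita was at 1.99 in replicate 1 of the EYFP NSCs. Flt3 was at -0.68 in replicate 1 of the EYFP astrocytes, which is a difference within its floor, since all astrocyte libraries were at the lowest level.

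The change from NSC to astrocyte differed between traced and hippocampal lines for 3 genes by the test of the interaction (limma, all 18 libraries). The difference on the log2 scale, traced minus hippocampal, was -1.62 for Batf3, -1.32 for Xcr1 and -1.09 for Ciita, with adjusted p-values of 0.000588, 0.00152 and 0.00405. Leaving out each library in turn, Batf3 ranged between -1.84 and -1.35, Xcr1 between -1.41 and -1.21 and Ciita between -1.18 and -0.98, with adjusted p-values of at most 0.00272, 0.00672 and 0.0141.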

How the results depend on the processing

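Counts of called dendritic cell genes kept within 1.5 times the value given in 68 settings that leave out no library and moved further in 12. With a filter of 100 on the linear scale only Zbtb46 was tested, and the counts were 1 in traced against hippocampal astrocytes, 0 in tdTomato and 1 in EYFP against hippocampal astrocytes, 1 for fate over all lines, 1 for fate in EYFP and 1 in hippocampal cultures, and 0 for the interaction. Without a filter they were 1 in tdTomato against hippocampal NSCs (Flt3), 1 in tdTomato against EYFP NSCs (Zbtb46), and 4 for fate in the tdTomato line and 4 in the EYFP line. Without a variance trend 1 gene (Xcr1) was called in tdTomato against EYFP astrocytes. Leaving out single libraries, the counts ran from 1 to 4 in EYFP against hippocampal astrocytes, from 1 to 2 for fate in the EYFP line and from 1 to 4 in the hippocampal line. In both fate comparisons, genes high in 3 libraries then failed the filter, whereas in EYFP against hippocampal astrocytes Batf3, Xcr1 and Zbtb46 stayed in the test and lost their calls on the adjusted p, and Ciita failed the filter without any 1 of the hippocampal libraries.

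Irf8 and small differences changed sign. Under quantile normalization Irf8 gave 0.028 in traced against hippocampal NSCs and -0.29 for fate over all lines, and Batf3 gave -0.12 for fate in the tdTomato line. Leaving out single libraries, Irf8 ranged from -0.055 to 0.067 in traced, -0.18 to 0.093 in tdTomato and -0.044 to 0.12 in EYFP against hippocampal NSCs, from -0.20 to 0.066 and -0.23 to 0.46 in tdTomato against EYFP NSCs and astrocytes, and from -0.063 to 0.13 and -0.42 to 0.27 for fate over all lines and in the tdTomato line. Zbtb46 ranged from -0.045 to 0.045 in tdTomato against hippocampal NSCs.

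Without replicate 1 of the hippocampal astrocytes, Irf8 was called lower in EYFP than hippocampal astrocytes (-0.90, adjusted p = 0.0246) and higher in hippocampal astrocytes than NSCs (0.68, adjusted p = 0.0139). Zbtb46 passed the threshold in traced against hippocampal astrocytes in the model with all lines (0.15, adjusted p = 0.0265), without a trend (adjusted p = 0.0442), with quantile normalization (0.18, adjusted p = 0.0252) and with median centring (0.19, adjusted p = 0.0201). In EYFP against hippocampal astrocytes, Batf3 lost its call without a filter (adjusted p = 0.0968) and Xcr1 with quantile normalization (-0.53, adjusted p = 0.0508). The cause of these shifts was not tested.

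The replicate block gave the same 0, 3 and 4 called genes in traced against hippocampal NSCs, in traced against hippocampal astrocytes and for fate over all lines, and changed no call among the genes. It moved the count over all genes from 1641 to 3049 in tdTomato against EYFP astrocytes. Same-numbered libraries were not treated as paired: the labels do not say which passage a number stands for, and the correlation of their deviations averaged 0.11 between lines (0.01 to 0.31) and -0.02 between fates. Whether they share a passage was not tested. The planned permutation tests of Clec9a were not run.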
